A study of Saccharomyces cerevisiae with 13 samples.

Results

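The 10 genes described here encode the subunits that belong to RNA polymerase III (Pol III) and to neither of the other nuclear RNA polymerases of Saccharomyces cerevisiae: RPO31, RET1, RPC82, RPC53, RPC37, RPC34, RPC31, RPC25, RPC17 and RPC11. They were taken by gene symbol from the 5446 genes that the arrays measure, and each of the 10 had 1 probe set. Messenger RNA was hybridised to 13 Affymetrix yeast 2.0 arrays, and a value below is the log2 of the deposited signal unless another scale is named. The SC group of the study holds ΔtL(GAG)G and ΔtR(CCU)J, which lost a single-copy tRNA gene, and ΔtM(CAU), each on 2 arrays. The label tM(CAU) names no gene copy. The study calls the strain ΔtiM(CAU)C, a loss of 1 copy of the initiator methionine tRNA gene, and placed it in this group because of its growth. The MC group holds the 2 strains that lost 1 gene of a multi-copy family, ΔtR(UCU)M2 and ΔtH(GUG)G1, again with 2 arrays each, and there are 3 wild-type arrays.

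The study's methods name Y5565 as the background in which the strains were made. Its stated genotype is MATα, with lyp1Δ, leu2Δ0 and ura3Δ0, with the reporter MFA1pr-HIS3 at can1Δ, and with MFα1pr-LEU2 at mfα1Δ. The arrays of the SC strains did not bear out mfα1Δ, as described below. In a deletion strain a hygromycin resistance cassette stands in place of the tRNA gene, and the wild type carries the same marker upstream of tL(CAA)L3. Cells grew in rich medium (YPD) at 30°C to mid-log phase. The labels call replicates biological but do not say whether a deletion strain was represented by more than 1 clone, so p-values measure the spread between these cultures.

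Pol III makes the transfer RNAs, the 5S ribosomal RNA and other small RNAs. The factor TFIIIC recognises promoters within tRNA genes and places TFIIIB upstream of them, and TFIIIB then recruits the polymerase. The protein Maf1 holds Pol III back when nutrients run short, and the polymerase shares several subunits with Pol I or with all nuclear polymerases. The arrays read the messenger RNAs of the subunits, not the amount or activity of the enzyme, and tRNAs were not measured.

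The 10 genes were well measured. Their lowest signal on any array was 31.4 times the array's background, taken from probe sets of another yeast. A feature of the arrays as a whole has to stand beside every comparison of the SC group. The pheromone gene MF(ALPHA)1, which the stated genotype lists as deleted, had 12.44 to 12.80 on the 6 SC arrays, against 2.79 to 4.53 on the 4 MC arrays and 2.54 to 4.89 on the 3 wild-type arrays. The SC strains thus carried another measured difference from the other strains, and it cannot be told apart from the loss of their tRNA genes. A background shared by all strains is therefore not certain for the SC group. The other 3 α-cell markers, STE3, MF(ALPHA)2 and SAG1, all had a lower mean in SC than in MC strains, as did 34.5% of all genes. Their summed signal was 5348 to 12978 on the SC arrays, against 11116 to 17200 in MC and 8315 to 15411 in wild type. The lowest SC values were those of ΔtR(CCU)J. Over the 4 α-cell markers, MF(ALPHA)1 included, the median difference from wild type was -0.62 in that strain, 0.13 in ΔtM(CAU) and 0.26 in ΔtL(GAG)G. Of 7 genes specific to a cells, 6 had a higher mean in SC than in MC strains, as did 65.5% of all genes, with a summed signal of 342.1 to 563.8, against 297.8 to 451.4 in MC and 304.0 to 370.4 in wild type. Their part in the subunit values was not tested. The MC and wild-type arrays did not have the MF(ALPHA)1 signal, although the spread behind every test was estimated from all 13 arrays.

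Across groups, 8 of the 10 subunit genes had a lower mean in SC than in MC strains, RPC37 had a higher one, and RPC53 was level. None of these differences passed the test over all genes. In MC strains all 10 genes lay above wild type on average, by 0.04 to 0.25 on the log2 scale, also without a call. In SC strains 5 lay above and 5 below wild type. The single subunit gene that passed the test in any comparison was RPC37, which rose in ΔtR(CCU)J to 1.47 times wild type. The study had picked out the Pol III genes from these same arrays, so the direction of the list as a whole is not independent evidence. The study also measured representative Pol III genes by RT-qPCR and reports that this verified the array pattern. Those measurements are separate from the array values given here.

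**Figure D1:**
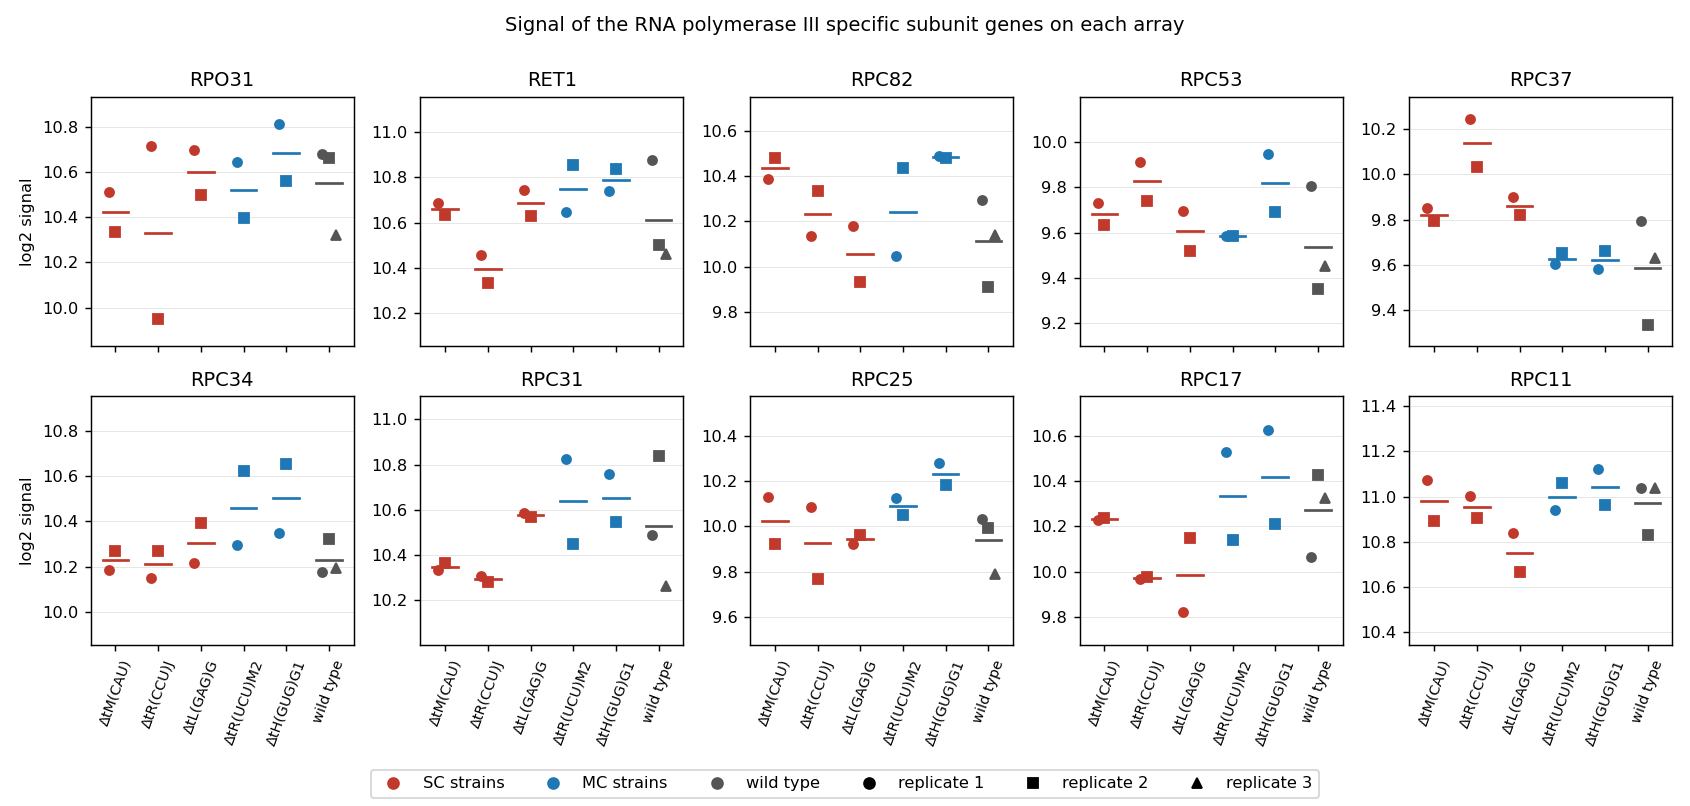
Log2 signal of each of the 10 subunit genes on every array, by strain, with SC strains in red, MC strains in blue and wild type in grey. Points are single arrays with a marker per replicate number, short lines are strain means, and each panel spans the same range of log2 units around its own gene. RPC37 is the gene whose 6 SC points all lie above its 4 MC points.

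The catalytic core of Pol III is formed by RPO31, which encodes the largest subunit, and RET1, which encodes the second largest. RPO31 ran from 9.95 to 10.72 on the 6 SC arrays with a median of 10.50, against 10.64, 10.40, 10.81 and 10.56 on the MC arrays and 10.68, 10.66 and 10.32 on the wild-type arrays. The groups overlapped, and the lowest value was 1 array, ΔtR(CCU)J replicate 2, whose partner replicate had the highest value of the SC group. The SC mean was 10.45 ± 0.28 (SD, n = 6) and the MC mean 10.60 ± 0.17 (SD, n = 4), a difference of -0.15 with a 95% interval of -0.50 to 0.20. Without ΔtR(CCU)J replicate 2 the difference was -0.02, and without its partner replicate it was -0.28.

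RET1 gave a tighter picture. It ran from 10.33 to 10.74 on the SC arrays with a median of 10.63, against 10.65, 10.85, 10.74 and 10.84 on the MC arrays and 10.88, 10.50 and 10.46 on the wild-type arrays. The 4 MC values sat in the upper part of the SC range or above it, while 1 wild-type array was higher than all others. The SC minus MC difference was -0.19 ± 0.10 (SE) with a limma adjusted p of 0.234. In ΔtR(CCU)J both arrays, at 10.46 and 10.33, lay below the 3 wild-type arrays, the first only just.

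RPC11 encodes a small subunit needed for cleavage of the nascent RNA and for termination. Its SC arrays ran from 10.67 to 11.07, against 10.94 to 11.12 on the MC arrays and 10.83 to 11.04 on the wild-type arrays. The ranges overlapped, and ΔtL(GAG)G, at 10.84 and 10.67, supplied the lowest SC values. RPC11 had the smallest within-strain SD of the 10 genes, 0.11, and its SC minus MC difference was -0.12 with a 95% interval of -0.32 to 0.07.

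The subunits encoded by RPC53 and RPC37 form a heterodimer that acts with the RPC11 product in termination and in starting the next round of transcription. The messages of the pair did not run together. RPC37 had 9.85 and 9.79 in ΔtM(CAU), 10.25 and 10.03 in ΔtR(CCU)J and 9.90 and 9.82 in ΔtL(GAG)G, against 9.61 and 9.65 in ΔtR(UCU)M2 and 9.58 and 9.66 in ΔtH(GUG)G1. The wild-type arrays had 9.80, 9.34 and 9.63. All 6 SC arrays thus lay above all 4 MC arrays, whereas 1 wild-type array, replicate 1, reached the lower end of the SC range.

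RPC37 was 1.24-fold higher in SC than in MC strains, a log2 difference of 0.32 ± 0.10 (SE) with a 95% interval of 0.09 to 0.54. The limma p was 0.0108 before and 0.0827 after Benjamini-Hochberg adjustment, so it was not called. This test uses the spread between arrays within strains. With strain means as replicates, RPC37 had a limma adjusted p of 0.278. It was the only one of the 10 genes whose SC arrays were all above the MC arrays, a pattern held by 5.47% of all genes. No subunit gene had all SC arrays below all MC arrays, which 2.15% of genes did. Against wild type the SC strains differed by 0.35 (adjusted p = 0.293) and the MC strains by 0.04 (adjusted p = 0.999).

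RPC53 ran from 9.52 to 9.91 on the SC arrays, against 9.59, 9.59, 9.95 and 9.69 on the MC arrays and 9.80, 9.35 and 9.45 on the wild-type arrays. The SC and MC groups shared most of their range, and wild type had the lowest pair of values as well as 1 high one. The SC minus MC difference was 0.003 with a 95% interval of -0.24 to 0.25. Its sign has no weight, since centring each array on its median gave -0.15. RPC53 and RPC37 were the subunit genes with a mean above wild type in all 5 deletion strains, by 0.05 to 0.29 for RPC53 and by 0.03 to 0.55 for RPC37. The smallest of these lay well within their SE, 0.15 for RPC53 and 0.14 for RPC37. All rest on the same wild-type arrays, and without wild-type replicate 2 the MC difference of RPC37 was -0.09. The share of all genes with this pattern was not counted.

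RPC82, RPC34 and RPC31 encode the heterotrimer that contacts TFIIIB and takes part in opening the promoter. RPC34 ran from 10.15 to 10.39 on the SC arrays with a median of 10.24, against 10.29 and 10.62 in ΔtR(UCU)M2 and 10.35 and 10.65 in ΔtH(GUG)G1, and 10.18, 10.32 and 10.19 in wild type. The second replicate of each MC strain stood above every SC and wild-type array, and the first replicates lay within the SC range. RPC34 was lower in SC than in MC strains by a log2 difference of -0.23 ± 0.10 (SE), with a limma p of 0.0433 before and 0.155 after adjustment. With strain means as replicates its limma adjusted p was 0.277. SC strains and wild type were close, with a difference of 0.02 and a 95% interval of -0.23 to 0.26.

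RPC31 had 10.33 and 10.37 in ΔtM(CAU), 10.31 and 10.28 in ΔtR(CCU)J and 10.59 and 10.57 in ΔtL(GAG)G, against 10.83, 10.45, 10.76 and 10.55 on the MC arrays and 10.49, 10.84 and 10.26 on the wild-type arrays. The 4 arrays of ΔtM(CAU) and ΔtR(CCU)J were below all MC arrays, and ΔtL(GAG)G was not. The wild-type arrays spanned the whole range of the deletion strains. The SC minus MC difference was -0.24 with a 95% interval of -0.52 to 0.04.

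RPC82 split the strains in another way. It had 10.39 and 10.48 in ΔtM(CAU), 10.13 and 10.33 in ΔtR(CCU)J and 10.18 and 9.93 in ΔtL(GAG)G, against 10.05, 10.44, 10.49 and 10.48 on the MC arrays and 10.29, 9.91 and 10.14 on the wild-type arrays. The arrays of ΔtM(CAU) and ΔtH(GUG)G1, an SC and an MC strain, all lay above wild type, while ΔtL(GAG)G stayed within the wild-type range. The SC minus MC difference was -0.12 with a 95% interval of -0.38 to 0.13.

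RPC25 and RPC17 encode the stalk of the enzyme, which takes part in initiation. RPC25 had 10.13, 10.05, 10.28 and 10.18 on the MC arrays and 10.03, 9.99 and 9.79 on the wild-type arrays, and it ran from 9.77 to 10.13 on the SC arrays. Its 4 MC arrays were all above the 3 wild-type arrays, the one subunit gene for which this held, against 1.43% of all genes. The difference was 0.22 ± 0.11 (SE), with a limma p of 0.0762 before and 0.999 after adjustment.

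RPC17 had 10.23 and 10.24 in ΔtM(CAU), 9.97 and 9.98 in ΔtR(CCU)J and 9.82 and 10.15 in ΔtL(GAG)G, against 10.53, 10.14, 10.63 and 10.21 on the MC arrays and 10.06, 10.43 and 10.32 on the wild-type arrays. The first replicate of each MC strain was above every SC array, and the second replicates were not. RPC17 had the most negative SC minus MC difference among the 10 genes, -0.31 ± 0.13 (SE), with a limma p of 0.0355 before and 0.140 after adjustment. With strain means as replicates the limma adjusted p of RPC17 was 0.268. It was also the one subunit gene with a mean below wild type in all 3 SC strains, by -0.04 to -0.30, and above it in both MC strains, by 0.06 and 0.15. That pattern was lost in the fit described below that adds the most similar wild-type array as a term. There RPC17 was at 0.09 in ΔtM(CAU) and at -0.03 in ΔtR(UCU)M2.

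**Figure D2:**
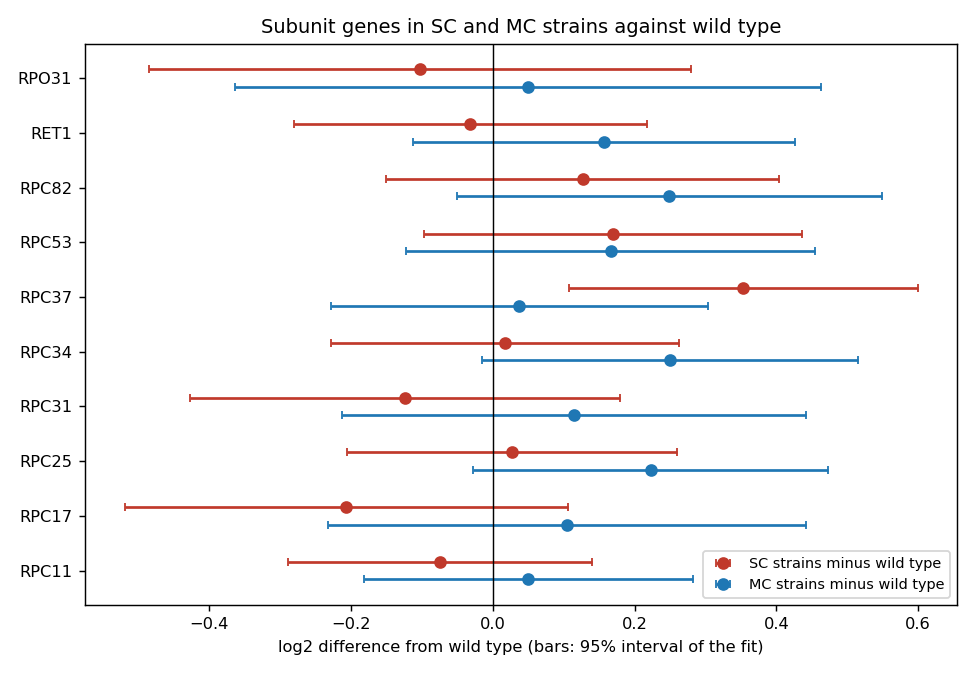
Log2 difference of the SC strains (red) and of the MC strains (blue) from wild type for each subunit gene, with the 95% interval of the limma fit as bars. All 10 MC points lie above 0, RPC37 is the only gene whose SC interval lies wholly above 0, and the SC and MC intervals of every gene overlap.

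Set against all genes, the counts read as follows. A lower mean in SC than in MC strains was found for 8 of 10 subunit genes and for 34.5% of all 5446 genes. The median difference was -0.17 over the subunit genes and 0.11 over all genes, so the subunit median lay at -0.28 relative to all genes. In a separate fit with each array centred on its median, the subunit median was -0.32 and RPC37 was higher by 0.17 in place of 0.32. After adjustment no subunit gene was called in either direction, while 0.165% of all genes were called higher and 0.0551% lower, which is 12 genes. At an unadjusted limma p under 0.05, 1 subunit gene was higher and 2 were lower, against 20.9% and 8.83% of all genes. The share higher at that threshold lies below the background and the share lower above it, and with 10 genes each rests on 1 or 2 genes.

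Between MC strains and wild type, all 10 means were higher, against 45.8% of all genes, with a median difference of 0.14 for the subunit genes and -0.01 for all genes. limma called no gene of the array, so the background of higher calls was 0%. At an unadjusted p under 0.05 there were 53 higher genes, 0.973% of all genes, and 37 lower ones, with no subunit gene among them. The smallest unadjusted p was 0.0623, for RPC34. The 10 directions are not 10 separate observations, since all came from the same 7 arrays. Single wild-type arrays decided some of them: RPC37 and RPC11 lay below wild type without its replicate 2, and RPO31 and RPC31 without its replicate 3.

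Between SC strains and wild type, 5 of 10 subunit genes had a lower mean, against 32.9% of all genes. The subunit median was -0.01, against 0.10 for all genes. No subunit gene was called, with 0.0551% of all genes called higher and 0% lower. RPC37 alone had an unadjusted p under 0.05, as did 11.1% of genes in the higher direction. Since both groups were set against the same 3 wild-type arrays, the SC and MC differences from wild type share those arrays and their errors.

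The replicate number moved some of these genes. Within replicate 1, with 3 SC and 2 MC arrays, 8 subunit genes had a lower SC mean, against 35.3% of all genes, with a median of -0.07. There RPC34, RPC31 and RPC17 had every SC array below both MC arrays, which 16.8% of genes had, and RPC37 had every SC array above, which 36.4% had. Within replicate 2 the lower means numbered 9, against 39.5% of all genes, with a median of -0.20. The genes with every SC array below were then RET1, RPC34, RPC25 and RPC11, against a background of 9.44%, and RPC37 was again above, against 18.7%. RPC34 and RPC37 were thus separated in both replicate numbers, and RPC17 and RPC31 in the first alone. In replicate 1 the SC and the MC arrays were closest to different wild-type arrays, as described next. There the group difference cannot be told apart from that split of the arrays.

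Replicate numbers tied wild-type arrays to deletion arrays only in part. Among bright genes, wild-type replicate 1 was the closest match of every SC array numbered 1, wild-type replicate 2 that of both MC arrays numbered 1, and wild-type replicate 3 that of all 5 deletion arrays numbered 2. With the most similar wild-type array as a term in the model, an alternative chosen after seeing the data, 9 of 10 subunit genes had a lower mean in SC than in MC strains and all 10 again had a higher mean in MC strains than in wild type. Single genes moved more than these counts. The SC minus MC difference was -0.09 for RPC17, -0.07 for RPC31 and 0.16 for RPC37, while it was -0.34 for RET1 and -0.25 for RPC82. No subunit gene was called between SC and MC strains, the smallest limma adjusted p being 0.0810 for RET1. Between MC strains and wild type, RPC25, RET1, RPC82, RPC53 and RPC34 had unadjusted limma p-values of 0.0154 to 0.0478 in this fit. Their adjusted p-values were 0.554 to 0.595, and those of the other subunit genes were larger. The share of all genes with such unadjusted p-values was not counted in this fit.

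**Figure D3:**
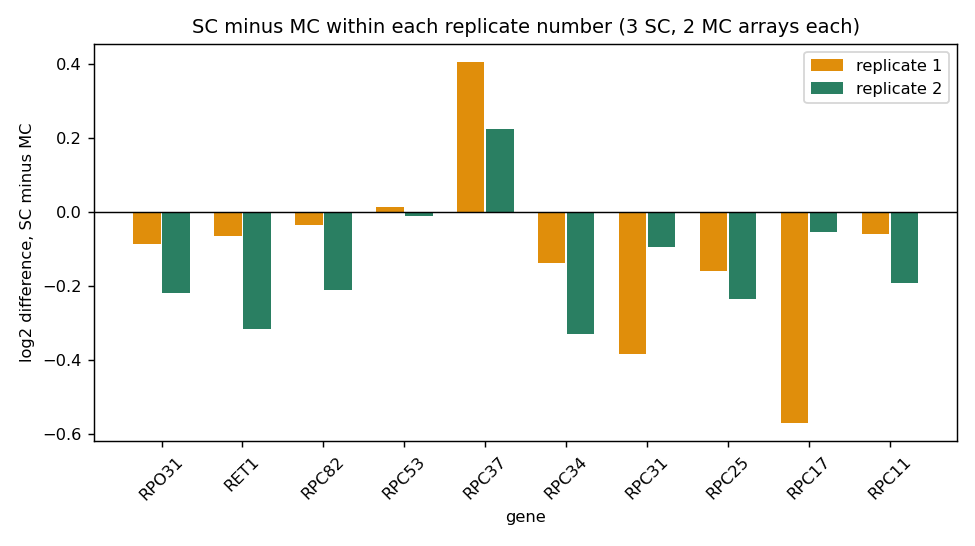
SC minus MC difference in log2 signal of each subunit gene, computed within replicate 1 and within replicate 2 (3 SC and 2 MC arrays each). RPC37 is above 0 in both, 8 genes are below 0 in both, and RPC53 changes sign.

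Strain by strain, ΔtR(CCU)J stood furthest from wild type among all genes, with 6.63% of genes called higher and 1.93% lower. RPC37 was the one subunit gene called. It had 10.25 and 10.03 in ΔtR(CCU)J, against 9.80, 9.34 and 9.63 in wild type, and both values lay above the 3 wild-type arrays. It rose by 0.55 ± 0.14 (SE) on the log2 scale, with a limma adjusted p of 0.0433. That call is near the threshold: it was kept in 5 of 21 alternatives. It was lost without any single array other than wild-type replicate 1, with an adjusted p of up to 0.215 without ΔtR(CCU)J replicate 1, and centring each array on its median gave 0.35 (adjusted p = 0.115). Of the other subunit genes, 7 had a lower mean than wild type, as did 32.9% of all genes, and RET1 and RPC17 had both arrays below all wild-type arrays, as did 12.5% of genes. Both arrays were above wild type for 31.6% of genes, and RPC37 was the only such subunit gene.

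The other SC strains gave no call. In ΔtM(CAU) 6 subunit genes had a mean above wild type, against 64.3% of all genes, and only RPC82 had both arrays above the 3 wild-type arrays, against 13.6%. No subunit gene was among the 0.0367% of genes called higher. In ΔtL(GAG)G 7 subunit genes had a mean above wild type, against 58.0% of genes, and only RPC37 had both arrays above, against 15.7%. No subunit gene was among the 0.0367% called higher or the 0.0184% called lower. The sizes were moderate, with RPC82 at 0.32 in ΔtM(CAU) and RPC17 at -0.28 in ΔtL(GAG)G as the furthest values.

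The MC strains gave no call either. In ΔtR(UCU)M2 9 subunit genes had a mean above wild type, against 42.7% of genes. RPO31 was at -0.03, and RPC25 had both arrays above wild type, against 4.13%. In ΔtH(GUG)G1 all 10 were above, against 48.3% of genes, and RPC82, RPC34 and RPC25 had both arrays above wild type, against 5.14%. RPC82 showed the largest difference there, 0.37 ± 0.16 (SE), with an unadjusted limma p of 0.0445 and an adjusted p of 0.9999. An unadjusted p under 0.05 with a higher mean was found for 1.10% of genes. No gene was called higher in either MC strain, a background of 0% in both.

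**Figure D4:**
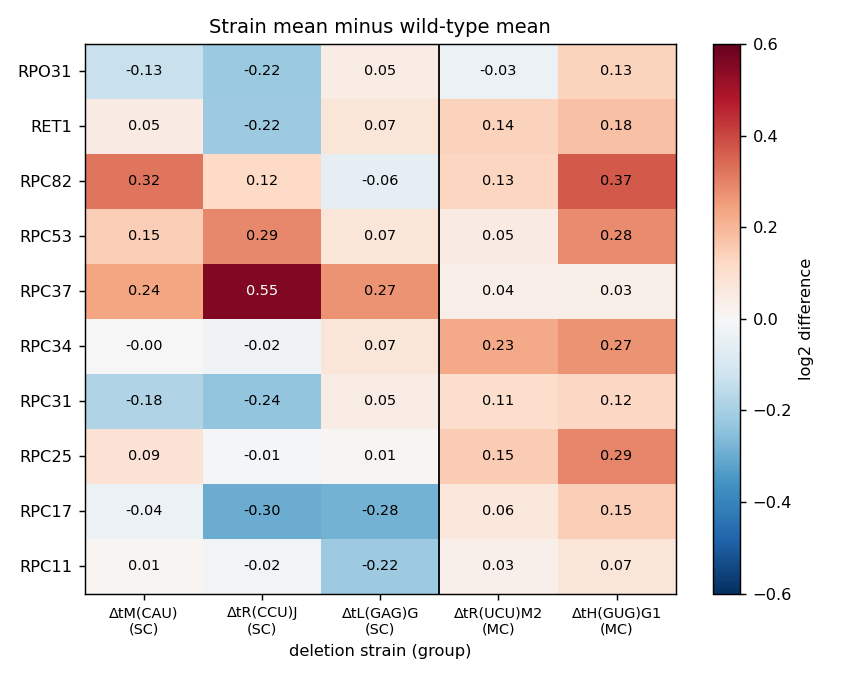
Mean log2 signal of each deletion strain minus the wild-type mean for the 10 subunit genes, with SC strains on the left and MC strains on the right of the black line. Red cells are above wild type and blue cells below; RPC37 in ΔtR(CCU)J, at 0.55, is the only cell whose difference passed the test over all genes.

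With each array centred on its median over all genes, most subunit genes varied together over the 13 arrays, and RPC37 did not. On that centred scale, the correlation of each gene with the mean of the other 9 lay between 0.50 for RPC82 and 0.94 for RPC25. It was -0.52 for RPC37. These values describe arrays that share strains and cultures, and arrays of 1 strain are not independent. Without centring, the range over arrays was widest for RPC37, at 0.91, and for RPO31, at 0.86, and narrowest for RPC11, at 0.45. The genes most like the mean of the 10 subunit genes, among 3982 genes bright enough to rank and after centring each array, were NOP13 with a Pearson r of 0.98 over 13 arrays, CIC1 and NSR1 with 0.96, and NUG1 and RRP6 with 0.95.

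The rest of the Pol III machinery did not share one direction between SC and MC strains. RPC40 and RPC19, which encode subunits shared by Pol I and Pol III, were lower in SC strains by -0.47 (limma adjusted p = 0.0532) and by -0.35 (adjusted p = 0.0673). The 5 genes for subunits common to all nuclear polymerases all had lower means in SC strains, with a median of -0.28 and none called. For the 7 genes specific to Pol I the count was 6 lower with a median of -0.13, and for the 7 specific to Pol II it was 5 lower with a median of -0.05. None of these genes was called either. The SC strains were not alike. Against wild type, RPC40 stood at -0.99 in ΔtR(CCU)J, -0.14 in ΔtM(CAU) and -0.13 in ΔtL(GAG)G. RPC19 stood at -0.21, 0.01 and -0.45 in the same strains.

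The means of the transcription factor genes lay mostly on the other side, as those of the array as a whole did. Of 10 genes for TFIIIA, TFIIIB and TFIIIC subunits, 9 had a higher mean in SC than in MC strains, against 65.5% of all genes, with a median of 0.22 beside 0.11 for all genes. The values were 0.37 for BDP1, a TFIIIB subunit (adjusted p = 0.0566), and 0.17 for BRF1, another TFIIIB subunit. MAF1, the Pol III repressor, was at 0.14, and the 4 genes for the repressor and kinases that act on Pol III all had higher means. None was called. Against wild type, the median of the 10 transcription factor genes was 0.35 in ΔtR(CCU)J, 0.04 in ΔtM(CAU) and 0.08 in ΔtL(GAG)G. Over all genes it was 0.17, 0.07 and 0.05, and BDP1 stood at 0.55, -0.004 and 0.09.

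In ΔtR(CCU)J against wild type, 3 genes of these lists passed the test. RPC40 fell by 0.99 on the log2 scale (limma adjusted p = 0.0107) and was called in 20 of 21 alternatives. TFC3, which encodes a DNA-binding subunit of TFIIIC, rose by 0.75 (adjusted p = 0.0308), and BDP1 rose by 0.55 (adjusted p = 0.0313). These 2 calls were kept in 12 alternatives each, and both were lost without either ΔtR(CCU)J array (adjusted p = 0.0585 to 0.156). With the replicate number as a block BDP1 was not called (adjusted p = 0.0534). The enzyme's own subunit genes, apart from RPC37, were not called in that strain in either direction.

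**Figure D5:**
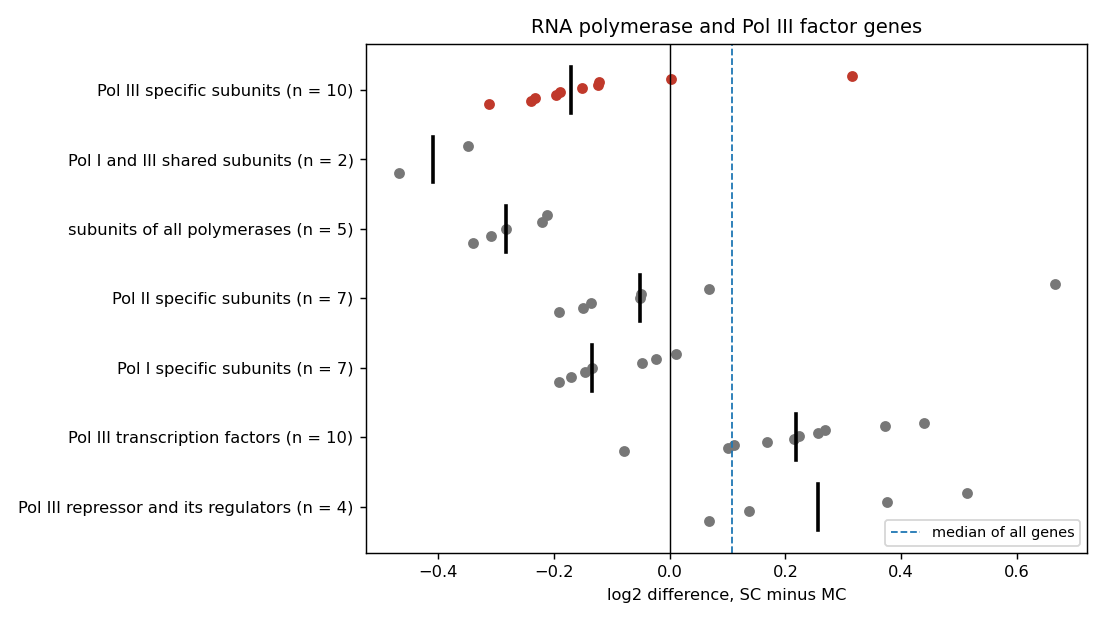
SC minus MC difference in log2 signal for each gene of the polymerase lists, with Pol III specific subunits in red. Black bars are list medians and the dashed line is the median of all genes, 0.11; the medians of the subunit lists lie below 0 and that of the Pol III transcription factors, 0.22, above the dashed line.

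The means of broad gene groups also differed in these comparisons. None of the genes in these groups was called between SC strains, MC strains and wild type, and their part in the subunit values was not tested. Of 122 genes for cytosolic ribosomal proteins, 121 had a lower mean in SC than in MC strains, against 34.5% of all genes, with a median of -0.35, and of 74 ribosome biogenesis genes 63 did, with a median of -0.13, close to the -0.17 of the subunit genes. Between MC strains and wild type, 69 of the 74 ribosome biogenesis genes had a higher mean, against 45.8% of all genes, with a median of 0.15 beside 0.14 for the subunit genes. The median deviation of the ribosome biogenesis genes on single arrays ran from -0.22 to 0.08 in SC strains, from -0.02 to 0.18 in MC strains and from -0.15 to 0.15 in wild type. That of the subunit genes ran from -0.14 to 0.05 in SC strains, from -0.01 to 0.24 in MC strains and from -0.16 to 0.04 in wild type. The highest of these, 0.24, was ΔtH(GUG)G1 replicate 1, and without it the MC median difference from wild type was 0.08. Of 33 proteasome genes all had a higher mean in SC than in MC strains, with a median of 0.23, and 31 had a lower mean in MC strains than in wild type, against 54.2% of all genes. At an unadjusted limma p under 0.05, 117 ribosomal protein and 15 ribosome biogenesis genes were lower in SC than in MC strains, against 8.83% of all genes. At that threshold 19 proteasome genes were higher, against 20.9%. In ΔtR(CCU)J against wild type, 4 ribosomal protein and 3 ribosome biogenesis genes were called lower, against 1.93% of all genes. There 3 proteasome genes were called higher, against 6.63%.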

How the data were processed

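RNA of 3 wild-type and 10 deletion-strain cultures was hybridised to 1 array each. The study's methods name RMA background adjustment and normalization between arrays, and the submitters' processing notes name GCRMA with no version. The authors deposited linear intensities for single probe sets, with a mean of 499.7 to 499.8 on every array after trimming 2% at each end. Their log2 was taken with no offset. Depth does not apply to arrays, and their number limits the precision.

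Of 10928 probe sets, 5495 are paired with 1 protein-coding gene and measure 5446 genes. For the 47 genes with several probe sets the brightest was used. Background was the 95th percentile of the 1746 Schizosaccharomyces pombe probe sets on an array. Coordinates are not given, since no source used here names the build of the probe design.

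Groups came from the labels, and the split into SC and MC from the study. Differences were fitted with limma 3.58.1 in R 4.3.3, all 13 arrays entering 1 model in which every strain has its own mean. Calls required an adjusted p under 0.05 (Benjamini-Hochberg, over all genes). The fit was tested on simulated data. Alternatives changed the scaling, probe sets, filter, prior, arrays, strains and replicate block. Another, chosen after seeing the data, added the wild-type array most similar to each deletion array as a term. The members and gene lists were chosen with earlier results of these data known. Named genes are the 10 members, RPC40, RPC19, BRF1, BDP1, MAF1, any called gene of the polymerase lists, MF(ALPHA)1 as a check of the labels, and the 5 most similar genes.

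Same-numbered arrays of the deletion strains deviated together, with a correlation of 0.12 to 0.67 over 3992 genes in all 10 pairs of strains. Those of SC strains and wild type did so for replicate 1, at 0.44 to 0.54, and little for replicate 2, at 0.05 to 0.13. For MC strains and wild type the correlation was negative, at -0.74 to -0.06. The study compared each strain with a wild type of its batch, and no source used here names the batch of an array.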

Additional observations from a re-analysis of the deposited data

Results flagged for a closer look

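RPC82 had 1 array far from the others of its group. In the MC strains it had 10.05 on ΔtR(UCU)M2 replicate 1 and 10.44 to 10.49 on the other 3 MC arrays, so that the gap from that array to its neighbour was 0.882 of the whole range of the group. Chance flags about 1 in 20 groups of this kind, and 20 groups of 4 or 6 arrays were examined here. The array is close to the wild-type values of RPC82, at 10.29, 9.91 and 10.14, and without it the MC minus wild type difference of RPC82 was 0.35 in place of 0.25.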

How the results depend on the processing

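No subunit gene passed the limma test between SC and MC strains or between either group and wild type in any of 680 alternative tests. In these tests 34 differences had the opposite sign, but many alternatives could not change a difference. The prior, the dim-gene filter, the averaging of probe sets and the restriction to the arrays compared left every subunit difference as it was. So did leaving out an array of a group not compared. The share of opposite signs among the 680 therefore says little about how stable the signs are. The number of arrays, 2 or 3 per strain, limits the precision. The causes of the changes below were not tested.

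The number of genes called between SC and MC strains, 12, was 63 after centring arrays on their median, 35 after quantile normalization, 246 without dim genes, 354 with a trended and robust prior, 2 within the first and 2 within the second replicates, 4 with strain means as replicates, 5 without the ΔtR(CCU)J strain, 155 without the ΔtM(CAU) strain, and 2 to 649 without single arrays, the highest without ΔtH(GUG)G1 replicate 2. For SC strains against wild type, 3 became 0 without dim genes, 5 with the trended prior, 5 with the most similar wild-type array as a term and 2 to 7 without single arrays. For MC strains, 0 became 1 with only the arrays compared and 0 to 1 without single arrays. For ΔtM(CAU), 2 became 0 without dim genes, 4 with the most similar wild-type array as a term and 2 to 3 without single arrays. For ΔtR(CCU)J, 466 became 228 with centring, 251 with quantile normalization, 5 with only the arrays compared, 1227 with the most similar wild-type array as a term and 24 to 495 without single arrays. For ΔtL(GAG)G, 3 became 7 with the trended prior, 15 with the most similar wild-type array as a term and 2 to 5 without single arrays. For ΔtR(UCU)M2, 0 became 1 with only the arrays compared, and for ΔtH(GUG)G1 0 became 0 to 1 without single arrays.

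The subunit median between SC and MC strains, -0.17, was -0.32 after centring and -0.0746 within the first replicates. Between SC strains and wild type, -0.01 became -0.12 after centring. Without single arrays these medians ran from -0.21 to -0.14 and from -0.04 to 0.03, and the median between MC strains and wild type from 0.08 to 0.18.

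RPC53 between SC and MC strains turned to -0.15 with centring, -0.11 with quantile normalization, -0.0086 within the second replicates, -0.0576 without the ΔtR(CCU)J strain and -0.11 with the most similar wild-type array as a term, and ran from -0.0606 to 0.0664 without single arrays. Between SC strains and wild type, RPC34 turned to -0.10 with centring, -0.0276 with quantile normalization and -0.0143 with the most similar wild-type array, and RPC25 to -0.0868 with centring and -0.0586 with quantile normalization. Without single arrays the SC differences from wild type ran from -0.23 to 0.0251 for RPO31, -0.11 to 0.10 for RET1, -0.0126 to 0.0629 for RPC34, -0.26 to 0.0302 for RPC31 and -0.0480 to 0.0797 for RPC25. The MC differences ran from -0.0671 to 0.11 for RPO31, -0.0880 to 0.14 for RPC37, -0.0187 to 0.27 for RPC31 and -0.0191 to 0.0897 for RPC11.

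Blocking on the replicate number gave 57 calls between SC and MC strains, none of them a subunit gene, and the signs of RPC34 (-0.0015) and RPC25 (-0.0480) in SC strains and of RPO31 (-0.0671) and RPC31 (-0.0187) in MC strains turned against wild type. Replicate 3 exists only in wild type, so this fit leaves that array out of the comparisons with wild type. In ΔtR(CCU)J the block ended the calls of RPC37 (limma adjusted p = 0.0595) and BDP1 (adjusted p = 0.0534), and those of RPC40 and TFC3 were kept.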
